A study of Mus musculus with 2 samples.

Results

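The NMDA receptor subunits are 7 genes, Grin1, Grin2a, Grin2b, Grin2c, Grin2d, Grin3a and Grin3b, taken by gene symbol from the 32285 genes counted in nuclei of the mouse ventral tegmental area (VTA), the midbrain region that holds the mesolimbic dopaminergic neurons. The CCI library came from mice with chronic constriction injury of the left sciatic nerve, where loosely tied ligatures cause lasting neuropathic pain, while the right nerve was exposed and left unligated. The WT library came from mice labelled wild type. All were adult. The sources used here give no strain, sex or time after injury, nor the number of animals pooled. Because each group has a single library, the groups could not be tested against each other, so a difference describes these libraries, and the intervals below are 95% intervals that cover counting error only. By its title, the study asks how astrocytes and inhibitory neurons with somatostatin act on dopaminergic neurons when depression accompanies lasting pain.

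NMDA receptors are glutamate-gated cation channels that need glycine or D-serine as a co-agonist and let calcium in when depolarisation lifts a magnesium block. Each is a tetramer of obligatory GluN1 subunits (Grin1) with GluN2 subunits (Grin2a to Grin2d), which bind glutamate, or with GluN3 subunits (Grin3a, Grin3b), which bind glycine and lower calcium entry. GluN2B is associated with slower decay than GluN2A and prevails early in forebrain development, and in the VTA these receptors drive burst firing of dopaminergic neurons and plasticity of their excitatory inputs.

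All subunits share the end of the third membrane segment, which lines the pore. The coding stretch of 21 bases there is shown for each gene. It was located by searching each translation for the same residues, so their identity was set by the search. So short a stretch does not show how alike the whole counted transcripts are. Sequences are from the GENCODE vM21 transcripts (GRCm38, the assembly behind mm10), 5′ to 3′ on the coding strand, with capitals at the bases that differ from Grin1, and each stretch encodes the same residues.
Grin1: tacactgccaacctggcagcc
Grin2a: tacacAgccaacctggcTgcc
Grin2b: tacactgccaacTtAgcCgcc
Grin2c: tacacGgccaaTctggcagcc
Grin2d: taTacAgccaaTctggcTgcc
Grin3a: tacacAgcGaacTtggcTgcT
Grin3b: tacacAgccaacctggcagcT
These lie within single exons at chr2:25297202-25297222, chr16:9653450-9653470, chr6:135772247-135772267, chr11:115253752-115253772, chr7:45854282-45854302 and chr4:49770473-49770493 on the minus strand, and at chr10:79974639-79974659 on the plus strand for Grin3b. Grin3a had the most substitutions against Grin1 here, 5 of 21 bases, and Grin2a, Grin2c and Grin3b had 2 each. Across the annotated transcripts, 2 of the 21 gene pairs shared any stretch of 30 bases (Grin2b with Grin2c, and Grin2c with Grin2d), and 0 pairs shared one of 50 bases. The shared windows of 30 bases numbered 8 in all and may overlap, so they can come from fewer, longer stretches.

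The genes differ greatly in size, which bears on every comparison between them. Grin2b spans 460.3 kb (chr6:135713233-136173511), Grin2a 427.7 kb (chr16:9567898-9995560) and Grin3a 184.1 kb (chr4:49661611-49845744). Grin2d spans 46.5 kb (chr7:45831883-45878378), Grin1 28.01 kb (chr2:25291181-25319187), Grin2c 18.07 kb (chr11:115249169-115267243) and Grin3b 6.476 kb (chr10:79970715-79977190). Nuclear RNA holds much unspliced transcript, and whether intronic reads were counted is not given in the sources used here, so make-up is given as percent of UMIs and also per kb of gene span and of exons. Grin1 overlaps the antisense gene Grin1os, which was counted apart with 929 UMIs in CCI and 259 in WT, and the strand setting is not stated.

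The CCI library was the deeper one. It kept 12825 nuclei with a median of 3461 UMIs, against 12189 nuclei with a median of 975 UMIs in WT, and the subunit genes summed to 100023 UMIs in CCI and 22635 in WT. The libraries had 54 barcodes in common, 37 of them kept in both. Neurons were 51.7% of CCI and 48.8% of WT nuclei. Myelin transcripts summed to 372.2 CPM (counts per 1e6 UMIs) in CCI and 1219 CPM in WT neurons and mitochondrially encoded transcripts to 2197 CPM in CCI and 5248 CPM in WT neurons. With both left out of the totals, the summed subunit log2 ratios given below stood at 0.07 in neurons, 0.19 in dopaminergic-like and -0.03 in GABAergic-like neurons, -0.08 in astrocyte-like and -0.04 in OPC-like nuclei, each within its interval, and their part in the other results was not tested. Classes were named from marker genes ("-like"), with clustering done without the 7 subunit genes. The libraries separated within classes: a cluster of 337 CCI and 1211 WT nuclei and another of 1152 CCI and 65 WT nuclei made up the astrocyte-like class, and subclusters s18 (233 CCI and 0 WT nuclei), s6 (124 CCI and 367 WT) and s7 (17 CCI and 471 WT) made up the dopaminergic-like class. Neurons rich in a vesicular glutamate transporter were grouped by the level of that transporter, not by a count of markers. They are called Slc17a6 neurons and Slc17a7 neurons, and 2321 CCI and 2938 WT neurons stayed without a group. Some neurons carried markers of regions beside the VTA, unevenly by library. Thalamic-type subclusters (580 CCI and 132 WT nuclei) fell among the Slc17a6 neurons, and an orexin and MCH subcluster had 252 CCI and 13 WT nuclei. Both enter the values of all neurons, so these and the Slc17a6 values are not of the VTA alone.

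In neurons as a whole, Grin2b and Grin2a gave most subunit UMIs, followed by Grin3a and Grin1, and Grin2d, Grin2c and Grin3b were minor. Grin2b was 46.4% of subunit UMIs (46.1 to 46.7) in CCI neurons and 39.4% (38.8 to 40.1) in WT neurons. Grin2a was 28.2% (28.0 to 28.5) in CCI and 35.9% (35.3 to 36.6) in WT. Grin3a was 12.1% in CCI and 11.2% in WT, Grin1 10.1% in CCI and 10.3% in WT, and Grin2d 2.61% in CCI and 2.65% in WT. Grin2c and Grin3b were under 1 percent, at 0.477% and 0.0617% in CCI and 0.448% and 0.0697% in WT.

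The order changed with length. Divided by gene span, Grin1 took the largest part, 52.8% in CCI and 53.3% in WT, and Grin2b 14.7% in CCI and 12.4% in WT. Divided by exon length, Grin2b was 31.3% in CCI and 26.2% in WT, Grin2a 26.4% in CCI and 33% in WT, and Grin1 17.5% in both libraries. Which scale is nearer to the number of molecules depends on where along the transcripts the reads arose, which was not tested.

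**Figure D1:**
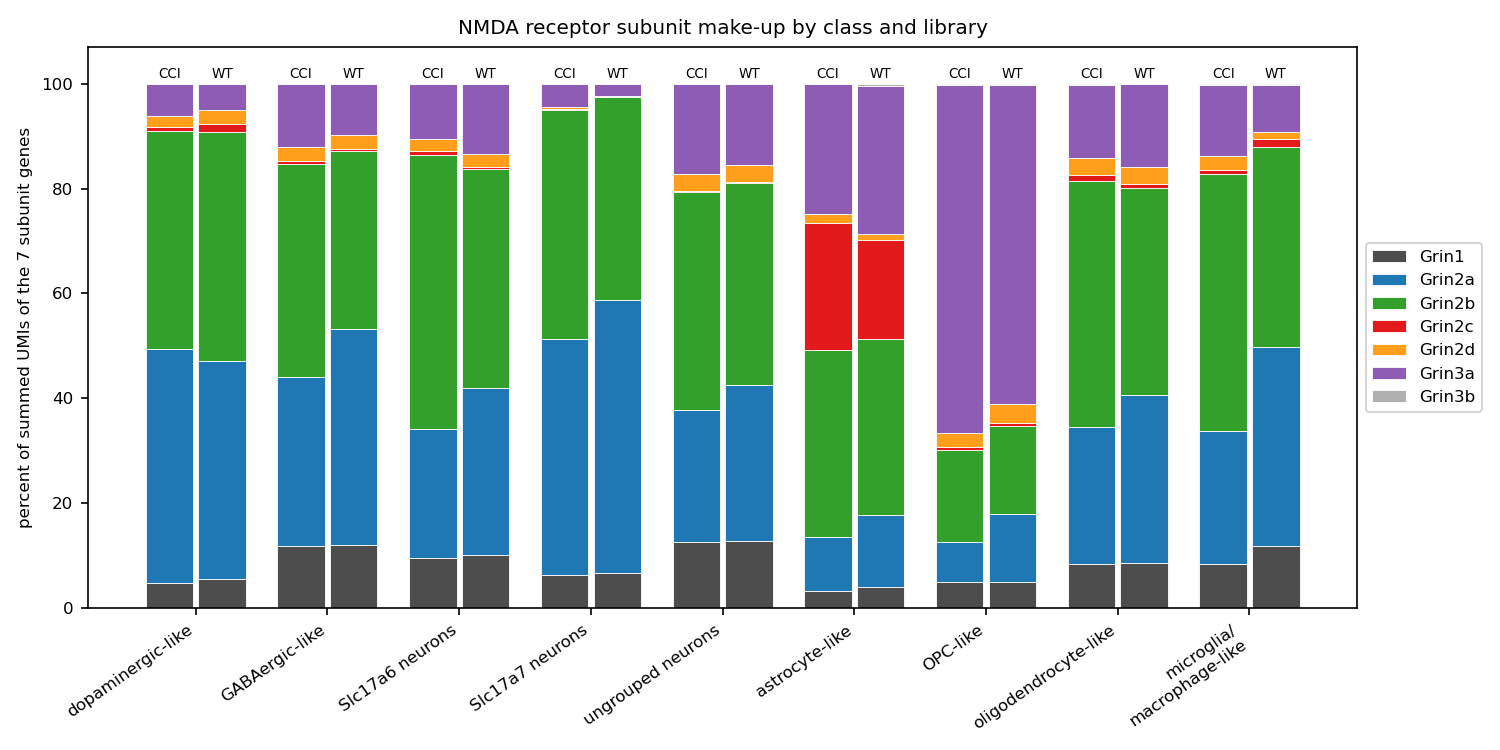
Subunit make-up by class. Each bar gives the percent of summed UMIs of the 7 subunit genes, CCI left of WT in each class. Grin2a and Grin2b fill most of each neuron bar, Grin2c is 24.1% (CCI) and 18.9% (WT) of the astrocyte-like bars, and Grin3a is 66.5% (CCI) and 60.8% (WT) of the oligodendrocyte precursor-like (OPC-like) bars.

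Grin1, the obligatory subunit, was lower in dopaminergic-like neurons than in the other neuron groups. It stood at 236.3 CPM (199.8 to 277.6) in CCI and 286.6 CPM (234.9 to 346.3) in WT in Slc17a7 neurons, at 215.2 CPM in CCI and 223.2 CPM in WT in GABAergic-like neurons, at 205.6 CPM in CCI and 181.7 CPM in WT in Slc17a6 neurons, and at 210.2 CPM in CCI and 215.3 CPM in WT in neurons without a group. Dopaminergic-like neurons had 96.5 CPM (86.7 to 107.1) in CCI and 99.5 CPM (86.0 to 114.5) in WT, below every other compared neuron group in both libraries with intervals apart. Its subclusters were alike in this, with Grin1 at 105.7 CPM in CCI and 100.7 CPM in WT in s6, 93.1 CPM in CCI in s18, and 89.2 CPM in CCI (9 UMIs) and 98.8 CPM in WT in s7. Grin1 was thus 4.65% of dopaminergic-like subunit UMIs in CCI and 5.5% in WT, against 11.7% in CCI and 11.96% in WT in GABAergic-like neurons. When dopaminergic neurons were gated by transcripts instead (1001 CCI and 941 WT nuclei), the Grin1 share was 7.69% in CCI and 6.04% in WT. What raised the CCI share was not tested.

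GluN2 UMIs per Grin1 UMI, a ratio within a class, numbered 19.2 in CCI and 16.3 in WT in dopaminergic-like neurons, 14.1 in CCI and 13.6 in WT in Slc17a7 neurons, 8.45 in CCI and 7.54 in WT in Slc17a6 neurons, and 6.52 in CCI and 6.54 in WT in GABAergic-like neurons. The order of these 4 groups was the same in both libraries.

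Grin2a encodes the GluN2A subunit, and its level varied widely between neuron groups. Slc17a7 neurons had the highest level, 1675 CPM (1575 to 1780) in CCI and 2228 CPM (2079 to 2385) in WT. Dopaminergic-like neurons came next in CCI at 928.8 CPM (897.7 to 960.6), and in WT, at 753.3 CPM (715.3 to 792.7), could not be told from GABAergic-like neurons at 769.7 CPM (729.7 to 811.3). GABAergic-like neurons had 594.7 CPM in CCI, Slc17a6 neurons 534.2 CPM in CCI and 568.6 CPM in WT, and neurons without a group 421.5 CPM in CCI and 499.8 CPM in WT.

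Grin2b encodes GluN2B. Its highest level was again in Slc17a7 neurons, 1629 CPM in CCI and 1658 CPM in WT. Slc17a6 neurons followed in CCI at 1137 CPM (1122 to 1153), and in WT, at 749.9 CPM (715.8 to 785.2), they overlapped with dopaminergic-like neurons at 789.0 CPM (750.2 to 829.4). Dopaminergic-like neurons had 862.8 CPM in CCI, GABAergic-like neurons 746.5 CPM in CCI and 633.7 CPM in WT, and neurons without a group 697.3 CPM in CCI and 649.2 CPM in WT. The highest values among Slc17a6 neurons belonged to subclusters led by Lef1, Synpo2 and Tcf7l2, markers of thalamic neurons: Grin2b stood at 2316 CPM in CCI and 2124 CPM in WT in s13, and at 1485 CPM in CCI and 1509 CPM in WT in s14. These subclusters came mostly from CCI, with 247 CCI and 44 WT nuclei in s13 and 249 CCI and 34 WT nuclei in s14.

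**Figure D2:**
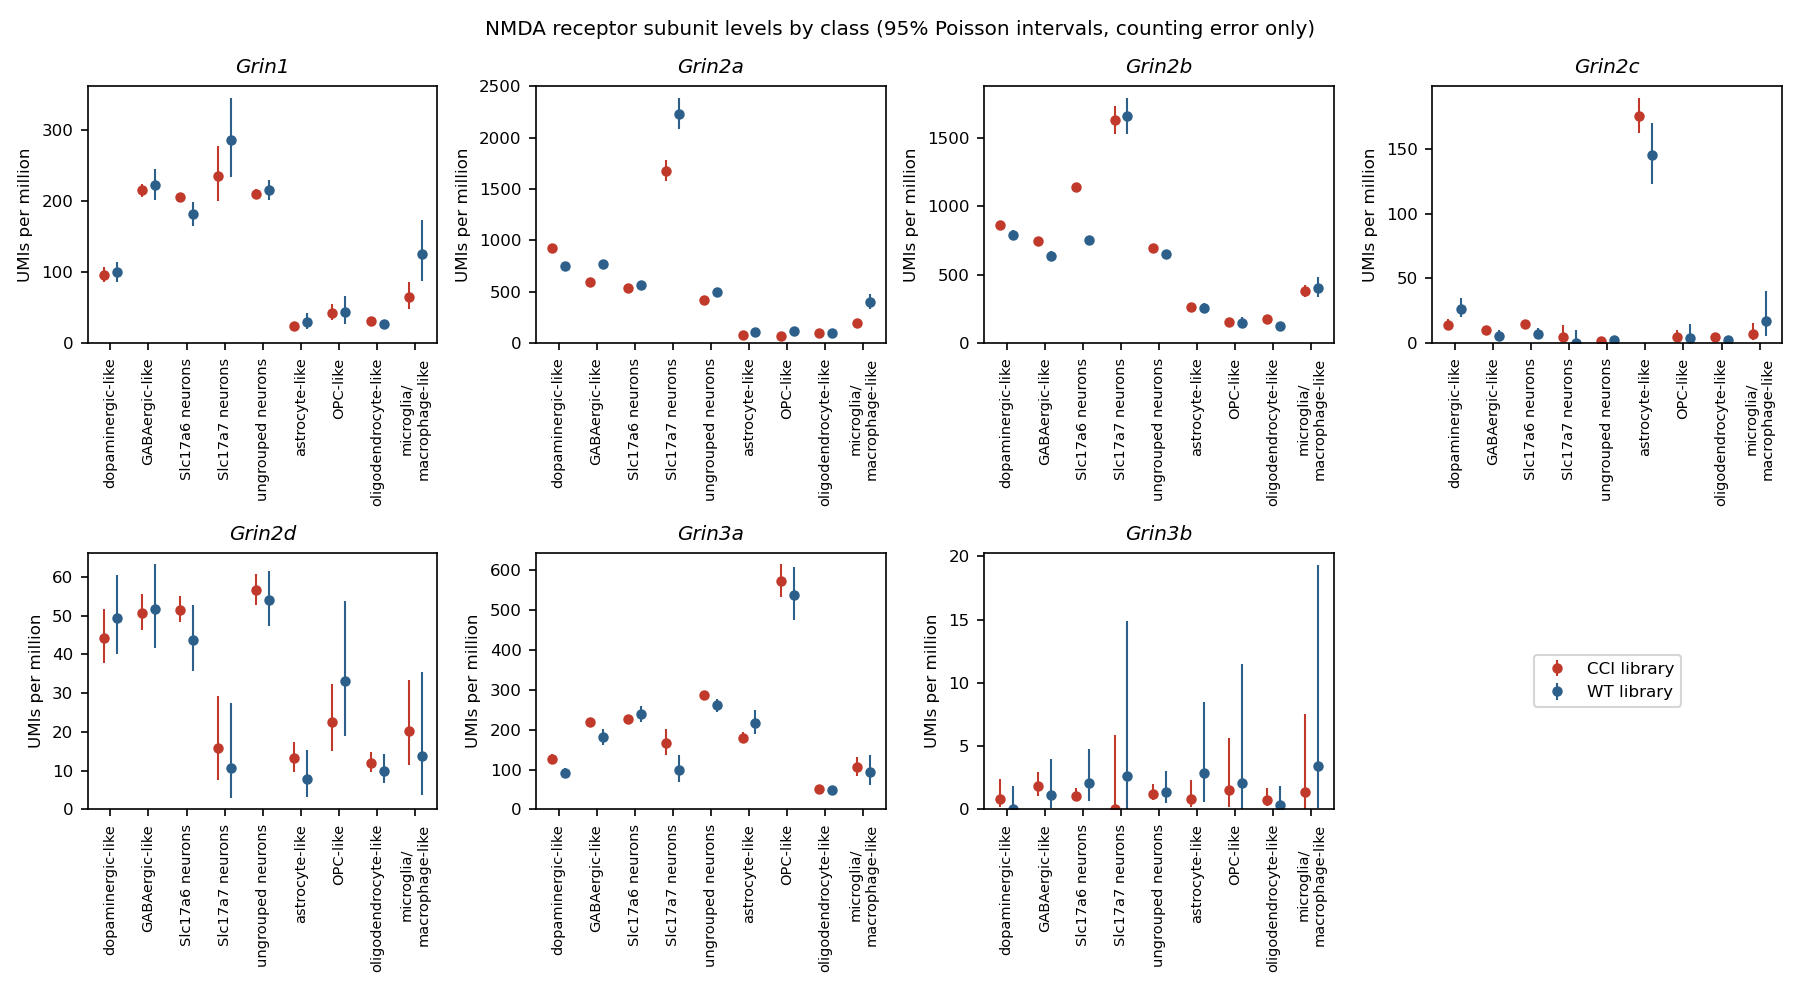
Level of each subunit gene (CPM, from the summed UMIs of the class) in CCI and WT, with Poisson intervals for counting error, in 9 classes. Grin1 is lowest among neuron groups in dopaminergic-like neurons, Grin2c stands out in astrocyte-like nuclei at 175.4 CPM (CCI) and 145.3 CPM (WT), and Grin3a in OPC-like nuclei at 573.1 CPM (CCI) and 538.9 CPM (WT).

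Among the minor GluN2 genes, Grin2d, whose GluN2D subunit is known for slow decay and weak magnesium block, was even across most neurons. It stood at 44.3 CPM in CCI and 49.5 CPM in WT in dopaminergic-like neurons, at 50.7 CPM in CCI and 51.7 CPM in WT in GABAergic-like neurons, at 51.6 CPM in CCI and 43.7 CPM in WT in Slc17a6 neurons, and at 56.5 CPM in CCI and 54.0 CPM in WT in neurons without a group. Slc17a7 neurons had less, 16.0 CPM (7.66 to 29.4) in CCI and 10.7 CPM (2.92 to 27.4) in WT, from 10 UMIs in CCI and 4 in WT.

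Grin2c, which encodes GluN2C, was low in neurons as a whole, at 9.33 CPM in CCI and 8.29 CPM in WT, with exceptions among subclusters. By group it stood at 14.3 CPM in CCI and 26.5 CPM in WT in dopaminergic-like, 14.5 CPM in CCI and 7.01 CPM in WT in Slc17a6, 10.04 CPM in CCI and 5.55 CPM in WT in GABAergic-like, and 1.75 CPM in CCI and 2.57 CPM in WT in ungrouped neurons. Slc17a7 neurons gave 3 UMIs of it in CCI and 0 in WT. Thalamic-type s13 had 78.4 CPM in CCI and 92.3 CPM in WT, while s21, also of the thalamic type by its markers, had 0 UMIs in both libraries. Within dopaminergic-like neurons, s7, in which the ventral-tier marker Sox6 is a leading gene, had 9.91 CPM in CCI, from 1 UMI, and 42.6 CPM in WT, and s18, with a like Sox6 level (498.8 CPM in CCI, against 695.5 CPM in WT in s7), had 19.3 CPM in CCI. The subcluster s6, with less Sox6 and more Calb1, had 1.99 CPM in CCI and 2.55 CPM in WT.

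Grin3a encodes GluN3A, known from juvenile synapses. Among neurons it was highest in those without a group, 286.9 CPM (278.0 to 296.0) in CCI and 260.9 CPM (245.8 to 276.7) in WT, which in WT overlapped with Slc17a6 neurons at 239.0 CPM (219.9 to 259.2), and lowest in dopaminergic-like neurons, 127.0 CPM (115.7 to 139.1) in CCI and 90.8 CPM (77.99 to 105.2) in WT. Slc17a7 neurons had 166.1 CPM (135.7 to 201.2) in CCI and 99.1 CPM (69.8 to 136.6) in WT, which overlapped with dopaminergic-like neurons in both libraries. Slc17a6 neurons had 227.7 CPM in CCI, and GABAergic-like neurons 219.4 CPM in CCI and 181.6 CPM in WT. Within the dopaminergic-like class Grin3a stood at 217.4 CPM in CCI and 136.4 CPM in WT in s6 and at 88.8 CPM in CCI in s18. In s7 it stood at 188.2 CPM in CCI, from 19 UMIs in 17 nuclei, and at 60.4 CPM in WT, so s7 was not low in both libraries. Grin3b, best known from motor neurons, gave only 57 UMIs in CCI and 14 UMIs in WT neurons. By group these were 3 in CCI and 0 in WT in dopaminergic-like, 17 in CCI and 2 in WT in GABAergic-like, 20 in CCI and 5 in WT in Slc17a6, 0 in CCI and 1 in WT in Slc17a7, and 17 in CCI and 6 in WT in ungrouped neurons.

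The share of Grin2a among Grin2a plus Grin2b UMIs does not depend on how the libraries are scaled. Over all neurons it was 37.8% (37.5 to 38.2) in CCI and 47.7% (46.9 to 48.5) in WT. It was 44.3% in CCI and 54.9% in WT in GABAergic-like neurons, 32.0% in CCI and 43.1% in WT in Slc17a6 neurons, and 50.7% in CCI and 57.3% in WT in Slc17a7 neurons. As clustered, dopaminergic-like neurons went the other way, with 51.8% (50.6 to 53.1) in CCI and 48.8% (47.0 to 50.6) in WT. The direction differed between its subclusters. In s6, the subcluster with at least 20 nuclei of both libraries, the share was lower in CCI, 53.6% (51.5 to 55.8) in CCI and 58.5% (56.1 to 60.8) in WT. In s7 it was higher in CCI, 49.1% (39.7 to 58.6) in 17 CCI nuclei and 36.5% (33.9 to 39.1) in WT. The subcluster s18, of CCI alone, had 51.1%. With dopaminergic neurons gated by transcripts instead (1001 CCI and 941 WT nuclei), the share was lower in CCI, 44.3% against 48.6% in WT.

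Subclusters with at least 50 nuclei in each library, 16 in all, allowed the share to be compared among like neurons. The CCI share was lower in 14 of them, with intervals apart in 6 (s0, s5, s6, s9, s10 and s20), and higher in 2 (s12 and s22), with intervals apart in 0. The difference, CCI minus WT, ran from -15.4 percentage points in s9 through a median of -3.9 to 2.3 in s12. Of the 4 further subclusters with at least 20 nuclei in each library, the CCI share was higher in 3, with overlapping intervals: 28.5% in CCI and 28.1% in WT in s13, 28.5% in CCI and 22.8% in WT in s14, and 18.0% in CCI and 13.4% in WT in s15. It was lower in s26, 50.7% in CCI and 56.0% in WT, also with overlapping intervals. With equal weight for these 20 subclusters the neuron share was 42.5% in CCI and 46.1% in WT, so the gap was smaller than in the pooled neurons. Oligodendrocyte-like nuclei, whose subunit RNA resembled the neurons' as described below, showed 35.9% (33.8 to 38.0) in CCI and 44.9% (41.0 to 48.7) in WT. How far free RNA of each library entered the shares of subclusters was not tested.

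The order of the subclusters was similar, not identical, in the libraries. The share ran from 29.4% in CCI and 33.1% in WT in s4, led by Cdh23, Ntng2 and Ebf2, through medians of 44.2% in CCI and 50.2% in WT, to 58.5% in CCI and 59.2% in WT in s8, led by the midbrain GABA gene Pax5. Among those that changed place, s9 had 34.9% in CCI and 50.3% in WT, and s22 54.9% in CCI and 53.3% in WT. Over the 16 subclusters, which share library, depth and free RNA, Pearson's r between the libraries was 0.88 and Spearman's rho 0.86, given as a description. The correlation of log2 levels was 0.95 for Grin2a, 0.95 for Grin2b, 0.81 for Grin2d, 0.65 for Grin1, 0.62 for Grin3a, 0.41 for Grin2c and 0.13 for Grin3b, the last 2 from few UMIs. Outside these 16, Grin2a was scarce in s15, led by Calcr and Sim1, with a share of 18.0% in CCI and 13.4% in WT, and in s19, led by Kcnmb2 and Meis2 with Sst among its leading genes, with 16.1% in 225 CCI nuclei.

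**Figure D3:**
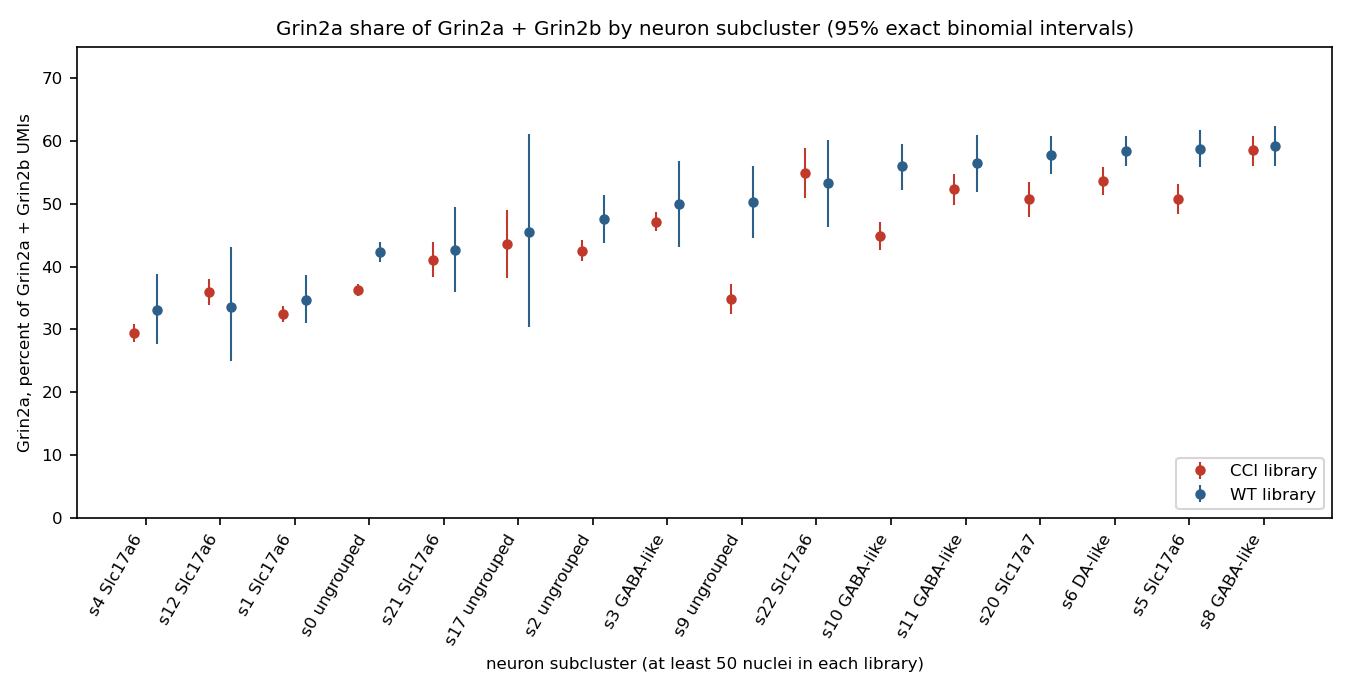
Grin2a as a percent of Grin2a plus Grin2b UMIs in 16 neuron subclusters, ordered by the WT value, with exact binomial intervals, CCI left of WT. The CCI point lies below the WT point in 14 of 16 subclusters, and s4 (29.4% and 33.1%) and s8 (58.5% and 59.2%) are near the ends of the range in both.

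Both GluN2 genes were read in the same nuclei about as often as their separate shares give. Nuclei with at least 1000 UMIs were thinned to 1000, and the others were left out. This kept 6526 of 6635 CCI and 4803 of 5943 WT neurons. Of the dopaminergic-like nuclei kept, 30.5% in CCI and 26.4% in WT had a UMI of each. The product of the single shares was 30.2% in CCI and 24.1% in WT. In Slc17a7 neurons 59.6% of CCI and 68.6% of WT nuclei had both, against products of 59.2% in CCI and 67.4% in WT. Over all neurons the shares were 19.8% in CCI and 22.5% in WT, against 19.3% in CCI and 20.9% in WT. In GABAergic-like neurons the shares were 18.3% in CCI and 22.6% in WT, against 18.9% in CCI and 21.5% in WT.

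At that depth Grin1 was read in 18.8% of CCI and 16.9% of WT neurons (66.3% and 27.5% before thinning), and Grin2b in 54.9% of CCI and 49.6% of WT neurons. The same shares in oligodendrocyte-like nuclei, whose subunit levels followed those of neuron markers (below), were 3.32% in CCI and 1.28% in WT for Grin1 and 16.2% in CCI and 9.47% in WT for Grin2b. Only 549 of 3848 WT oligodendrocyte-like nuclei reached that depth, against 3584 of 3698 in CCI. Shares before thinning cover all nuclei of a class. Median depths before thinning were 6259 UMIs in CCI and 1613 in WT neurons and 1918 UMIs in CCI and 715 in WT oligodendrocyte-like nuclei.

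Glial classes were read against 6 neuron markers (Rbfox3, Snap25, Syt1, Meg3, Celf4 and Rbfox1), since free neuronal RNA would bring all neuronal transcripts in at a like fraction. In oligodendrocyte-like nuclei the markers stood at 13.7% to 26.5% of their neuron level in CCI and 13.1% to 31.2% in WT. Grin1, Grin2a, Grin2b, Grin2d and Grin3a lay in that range in both libraries, between 15.4% and 23.8% in CCI and between 13.9% and 23.5% in WT. Their make-up was likewise near the neurons', with Grin2b at 46.9% in CCI and 39.4% in WT, and these 5 genes could not be told from the markers there. Grin2c lay above the markers, at 48.3% in CCI and only just so at 32.0% in WT, from 35 UMIs in CCI and 8 in WT. Grin3b, at 64.0% in CCI and 25.7% in WT, lay above them in CCI only, from 6 UMIs in CCI and 1 in WT.

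Astrocyte-like nuclei differed. Grin2c stood at 175.4 CPM (162.4 to 189.3) in CCI and 145.3 CPM (123.0 to 170.5) in WT, which was 1880% of its neuron level in CCI and 1750% in WT, while the neuron markers stood at 11.1% to 20.9% in CCI and 13.5% to 31% in WT. Among the 7 genes it was 24.1% of UMIs (22.5 to 25.8) in CCI and 18.9% (16.3 to 21.8) in WT, and 76.6% in CCI and 68.6% in WT per kb of gene span. Grin2b, at 259.9 CPM in CCI and 257.7 CPM in WT (28.6% and 35.3% of the neuron level), and Grin3a, at 179.9 CPM in CCI and 218.0 CPM in WT (76.3% and 106%), also lay above the range of the markers. Grin1 and Grin2a lay within it, Grin1 at 11.8% in CCI and 15.7% in WT and Grin2a at 13.5% in CCI and 16.0% in WT. Grin2d, at 25.9% in CCI and 15.8% in WT, lay above it in CCI only, from 50 UMIs in CCI and 8 in WT. Grin3b lay above it from 3 UMIs in each library. Thinned to 1000 UMIs, Grin2c was read in 16.9% of CCI and 12.4% of WT astrocyte-like nuclei (33.6% and 10.8% before thinning), against 0.690% in CCI and 0.854% in WT neurons and 0.642% in CCI and 0.546% in WT oligodendrocyte-like nuclei. Only 210 WT astrocyte-like nuclei reached that depth, against 1476 in CCI.

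OPC-like nuclei, recognised by Pdgfra and Vcan, were marked by Grin3a. It stood at 573.1 CPM (532.5 to 616.0) in CCI and 538.9 CPM (475.5 to 608.4) in WT, 243% of the neuron level in CCI and 261% in WT, above all other compared classes in both libraries. It was 66.5% of subunit UMIs (63.6 to 69.3) in CCI and 60.8% (56.0 to 65.5) in WT, and without doublet removal 52.9% in CCI and 52.3% in WT. Grin1, without which no surface receptor is known to form, was at 21.5% of the neuron level in CCI and 22.7% in WT, while the markers ran from 11.6% to 60.3% in CCI and from 15.9% to 78.9% in WT. Rbfox1 and Snap25 set the top of that range, and the other 4 markers reached 19.5% (Syt1) in CCI and 25.8% (Syt1) in WT, so Grin1 stood slightly above those 4 in CCI and among them in WT. Grin2b, at 16.7% in CCI and 20.4% in WT, lay among those 4, and Grin2a was at 12% in CCI and 17.4% in WT. Grin2d was at 44.2% in CCI and 67.4% in WT, from 29 UMIs in CCI and 16 in WT. Grin2c gave 6 UMIs in CCI and 2 in WT, and Grin3b 2 in CCI and 1 in WT. Committed precursors, the next stage, were few, and their Grin3a was at 98.2 CPM (49.0 to 175.7) in 23 CCI nuclei and 83.9 CPM (51.9 to 128.3) in 211 WT nuclei.

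Microglia/macrophage-like nuclei carried much neuronal RNA, with the markers at 28.2% to 50.4% of the neuron level in CCI and 44.6% to 67.0% in WT, and Grin1, Grin2a, Grin2b and Grin3a followed it between 32.7% and 44.8% in CCI and 45.4% and 65.5% in WT. Grin2d gave 15 UMIs in CCI and 4 in WT there, Grin2c 5 in each library and Grin3b 1 in each. Vascular and fibroblast-like nuclei were too few in WT (49) for a comparison.

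**Figure D4:**
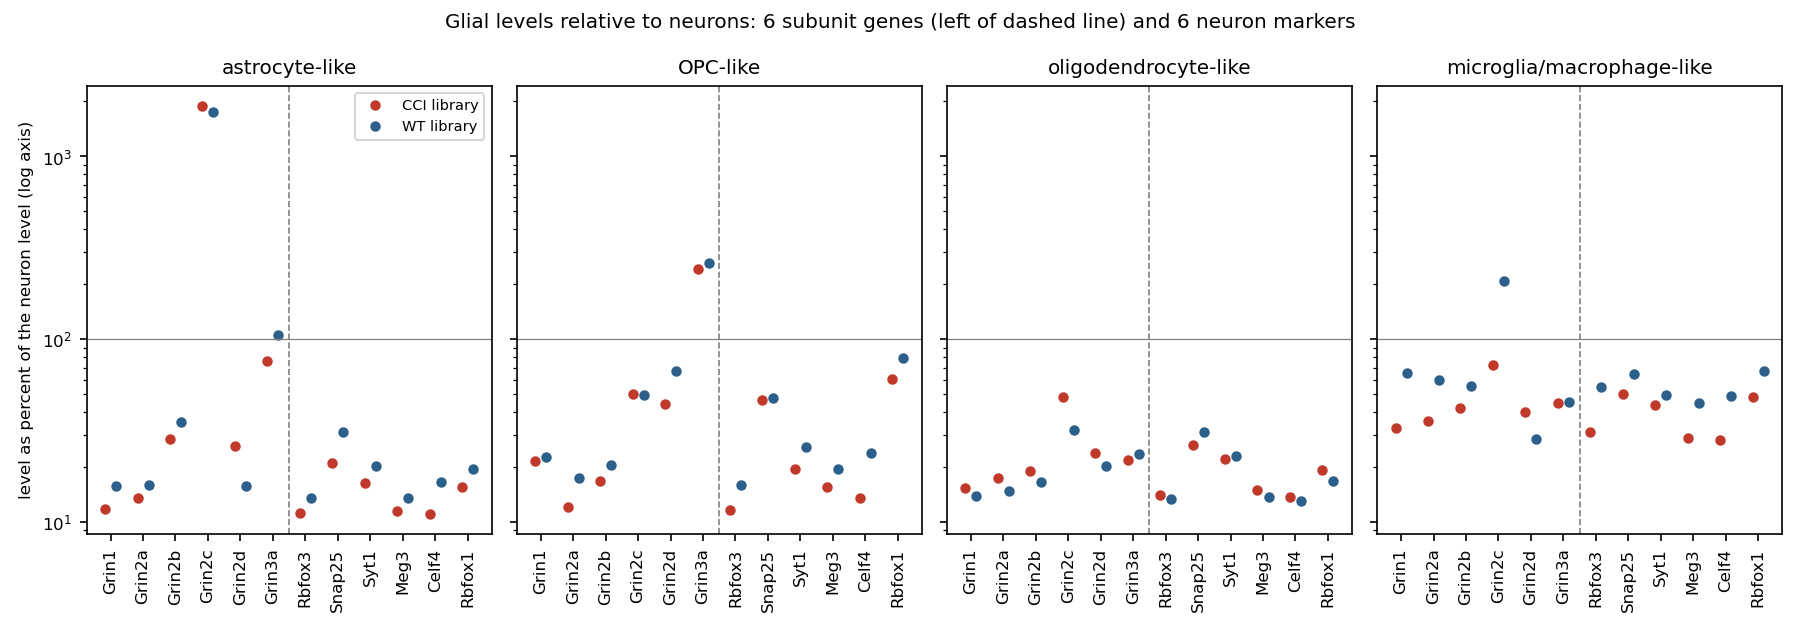
Level in 4 glial classes as percent of the level in neurons of the same library (log axis), for 6 subunit genes left of the dashed line and 6 neuron markers right of it, CCI left of WT. Grin2c in astrocyte-like nuclei (1880% and 1750%) and Grin3a in OPC-like nuclei (243% and 261%) lie above the line of equal levels, while most subunits in oligodendrocyte-like nuclei lie among the markers.

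Between the libraries, summed subunit UMIs gave a log2 ratio, CCI over WT, of 0.08 (0.06 to 0.10) in all neurons, 0.20 (0.14 to 0.26) in dopaminergic-like neurons, -0.02 in GABAergic-like neurons, 0.28 (0.23 to 0.32) in Slc17a6 neurons, -0.20 in Slc17a7 neurons and -0.01 in neurons without a group. In glia it was -0.08 (-0.19 to 0.04) in astrocyte-like, 0.26 (0.16 to 0.37) in oligodendrocyte-like, -0.04 in OPC-like and -0.44 (-0.65 to -0.24) in microglia/macrophage-like nuclei. In the shared dopaminergic-like subcluster s6 the summed ratio was -0.01. A gene was counted as differing when past 1.5-fold with at least 20 UMIs in the class over both libraries.

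In all neurons 0 of the 7 members were past 1.5-fold, against 10.5% of all tested genes higher and 8.8% lower in CCI. Grin2a stood at -0.27 (-0.30 to -0.23) and Grin2b at 0.32 (0.28 to 0.35), and Grin1 at 0.06 (-0.01 to 0.12). In dopaminergic-like neurons 0 members were higher (10.6% of genes) and 1 of 6 tested was lower (6.77%): Grin2c, at 14.3 CPM in CCI and 26.5 CPM in WT (-0.89, -1.48 to -0.31), from 52 UMIs in each, with a ratio of -0.35 within s6 from few UMIs. Grin2a stood at 0.30 (0.21 to 0.39) and Grin3a at 0.48 (0.23 to 0.74), and within s6 Grin2a turned to -0.20.

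In GABAergic-like neurons 1 of 6 was higher (14.4% of genes) and 0 were lower (8.07%): Grin2c at 0.85 (-0.09 to 1.96), an interval that holds 0. After thinning Grin2c stood at -1.34, but it was then read in only 3 of 1227 CCI and 5 of 810 WT nuclei. In Slc17a6 neurons 2 of 7 were higher (13.2% of genes), Grin2b at 0.60 (0.53 to 0.67) and Grin2c at 1.05 (0.34 to 1.85), and 1 was lower (10.5%), Grin3b at -0.93 (-2.39 to 0.84) from 20 UMIs in CCI and 5 in WT. With equal weight for shared subclusters Grin2b stood at 0.05 and Grin2c at -0.46, and without subclusters held mostly by 1 library at 0.43 and 0.26. In Slc17a7 neurons 1 of 4 was higher (15.8% of genes), Grin3a at 0.74 (0.19 to 1.33), and 0 were lower (10.4%). Neurons without a group had 0 of 7 past the fold (10.4% of genes higher and 7.42% lower).

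In astrocyte-like nuclei 1 of 6 was higher (14.9% of genes), Grin2d at 0.77 (-0.32 to 2.06) from 50 UMIs in CCI and 8 in WT, and 0 were lower (8.77%). Grin2c stood at 0.27 (0.01 to 0.54) and at -0.01 with equal weight for both astrocyte-like clusters, and Grin3a at -0.28 (-0.50 to -0.05). Grin2a stood at -0.52 (-0.84 to -0.19), and at 0.13 with equal weight for both clusters. In oligodendrocyte-like nuclei 1 of 6 was higher (11.6% of genes), Grin2c from 35 UMIs in CCI and 8 in WT, and 0 were lower (6.61%). In OPC-like nuclei 0 were higher (15.2% of genes) and 1 of 5 was lower (8.89%), Grin2a at -0.81 (-1.31 to -0.30), while Grin3a stood at 0.09 (-0.12 to 0.30). In microglia/macrophage-like nuclei 0 were higher (23.9% of genes) and 2 of 4 were lower (16.3%), Grin1 at -0.94 and Grin2a at -1.01, beside neuron markers summed to 8050 CPM in CCI and 10520 CPM in WT. With equal weight for its clusters these ratios were 0.01 and -0.06.

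**Figure D5:**
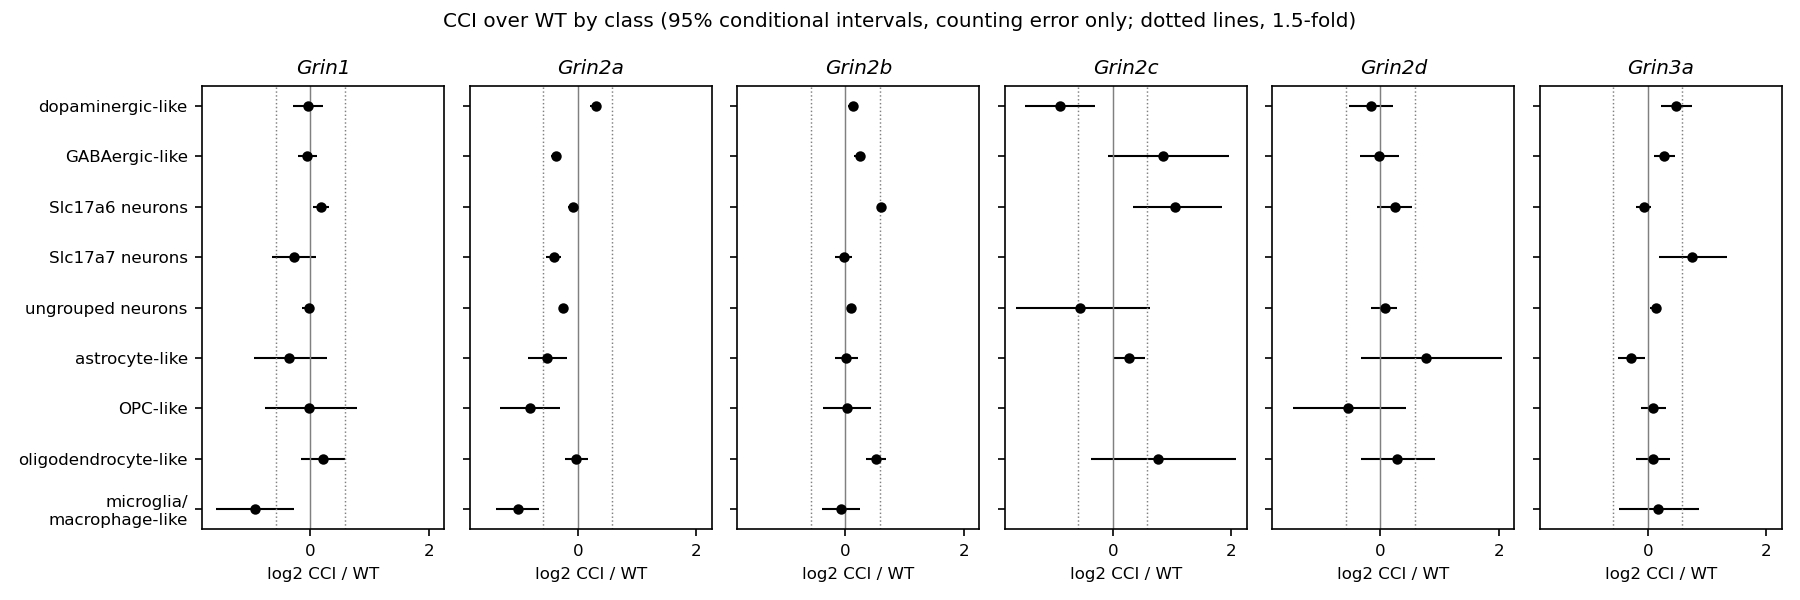
Log2 ratio of CCI over WT for 6 subunit genes in 9 classes, with exact conditional intervals for counting error; dotted lines mark 1.5-fold, and genes under 20 UMIs are not drawn. Most points lie between the dotted lines. Among those outside are Grin2b in Slc17a6 neurons (0.60), just past the line, and Grin2c in dopaminergic-like neurons (-0.89). Others outside include Grin2c in Slc17a6 neurons (1.05) and Grin1 (-0.94) and Grin2a (-1.01) in microglia/macrophage-like nuclei.

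Genes whose levels followed a subunit over the 16 shared subclusters were ranked among 2167 genes with at least 1000 UMIs in the neurons of each library, by the smaller of the correlations in the 2 libraries on log2 levels. Grin2b was most like Celf2, an RNA-binding protein gene (0.86), Gria1, an AMPA receptor subunit gene (0.84), and Cdk17 (0.80). Grin2a was most like Lyst (0.73), the GDNF receptor gene Gfra1 (0.71) and the potassium channel gene Kcnd3 (0.69). Grin1 was most like Wdr7 (0.74) and Rasgrf1, a calcium-responsive Ras exchange factor gene (0.73), and Grin3a most like Rnf220 (0.61) and Ebf1 (0.59). These are descriptions over points that share library, depth and free RNA.

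A list of 64 genes around the receptor (scaffolds, kinases and phosphatases, downstream signalling, co-agonist supply and linked receptors) was set beside the subunits. In all neurons 63 were tested, 5 were higher (10.5% of all genes), 7 lower (8.8%) and 51 within 1.5-fold, with a median log2 ratio of 0.12 against 0.04 over all genes. Of the 18 scaffold and anchoring genes, such as the PSD-95 family, 0 were past the fold, and their median was 0.20. Among kinases Camk2a, the alpha subunit of CaMKII, stood at 198.2 CPM in CCI and 116.9 CPM in WT (0.76, 0.68 to 0.85). Among downstream genes Nos1, neuronal nitric oxide synthase, stood at 29.0 CPM in CCI and 13.3 CPM in WT (1.13, 0.88 to 1.39). Of 14 co-agonist supply genes 2 were higher and 5 lower (median -0.25), among the lower ones Phgdh, which starts serine synthesis, at -0.98, Psat1 at -0.81 and the serine transporter gene Slc7a10 at -0.79, all at a few CPM in neurons.

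In dopaminergic-like neurons 54 of the list were tested, 2 were higher (10.6% of all genes), 1 lower (6.77%) and 51 within, with a median of -0.02 against 0.03 over all genes. Among those with at least 100 UMIs the highest were Nsmf, which encodes a messenger from synapse to nucleus, at 0.65 (0.13 to 1.19) and Camk2a at 0.56 (0.15 to 0.98), which is just within the fold, and the lowest was the calmodulin gene Calm3 at -0.56 (-0.92 to -0.19), also within it. In GABAergic-like neurons 8 of 60 were higher (14.4% of all genes) and 3 lower (8.07%), among them Nos1 at 1.23 and Camk2a at 1.04, and Calm3 at -0.68. In Slc17a6 neurons 10 of 61 were higher (13.2% of all genes) and 6 lower (10.5%), with the kinase genes Ptk2b at 1.31 and Src at 0.84 and the scaffold gene Homer2 at 0.88. In Slc17a7 neurons 5 of 48 were higher (15.8% of all genes) and 5 lower (10.4%), with Camk2d at 1.19 and Homer1 at -1.21. In neurons without a group 3 of 60 were higher (10.4% of all genes) and 5 lower (7.42%), with Nos1 at 1.34 and Calm3 at -0.89.

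In astrocyte-like nuclei 6 of 57 were higher (14.9% of all genes) and 4 lower (8.77%), with a median of -0.05 against 0.03. Of co-agonist supply genes 3 of 10 were higher and 0 lower, beside the same shares of all genes. Phgdh stood at 32.98 CPM in CCI and 12.6 CPM in WT (1.39, 0.56 to 2.34), and Slc1a4, a serine exchanger gene, at 100.3 CPM in CCI and 67.8 CPM in WT (0.56, 0.19 to 0.95), just within the fold. Grm5, the metabotropic glutamate receptor coupled to NMDA signalling, stood at 289.9 CPM in CCI and 520.3 CPM in WT (-0.84, -0.99 to -0.69), and Ephb1 at -0.90 and Dlg4, which encodes PSD-95, at -0.60. In oligodendrocyte-like nuclei 3 of 59 were higher (11.6% of all genes) and 2 lower (6.61%), with a median of 0.08 against 0.06. In microglia/macrophage-like nuclei 6 of 48 were higher (23.9% of all genes) and 15 lower (16.3%), with a median of -0.17 against 0.10. Ptk2b stood there at 1.24 and Ephb1 at -1.53. That class joined a cluster of 352 CCI and 34 WT nuclei and another of 59 CCI and 269 WT nuclei. Its neuron markers summed to 8050 CPM in CCI and 10520 CPM in WT. How far the cluster mix and the neuronal RNA entered these counts was not tested. In OPC-like nuclei 4 of 53 were higher (15.2% of all genes) and 5 lower (8.89%), with a median of 0.03 in the list and over all genes.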

How the data were processed

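UMI counts for each gene in each barcode were deposited as matrices; the authors ran Cell Ranger (7.1.0, per the file headers) on mm10; Seurat is also named per the submitters' processing notes. Strand setting, annotation release and use of intronic reads are not given in the sources used here. The protocol describes enzymatic digestion while the design speaks of nuclei; barcodes are called nuclei.

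Nuclei with at least 200 genes, 500 UMIs and at most 20% mitochondrial UMIs were kept: 0 CCI and 690 WT barcodes failed. Scrublet (Scanpy 1.11.5) then removed 911 CCI (6.63%) and 1235 WT (9.20%) barcodes as doublets. Counts were log-normalised and scaled within each library. The 2000 most variable genes, without the 7 members, gave 30 principal components, 20 neighbours and Leiden clusters at resolution 1.0 (leidenalg 0.10.2), with neurons clustered again. A class name required a marker level of at least 0.25, 1.5 times the next class, and 3 markers in 5% of nuclei. Slc17a6 and Slc17a7 neurons had at least 100 CPM of these transporters and 3 times the GABAergic transcripts.

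UMIs were summed per class and library and given as CPM. Levels carry exact Poisson, shares Clopper-Pearson and log2 ratios exact conditional 95% intervals (SciPy 1.17.1). Their computation was checked on counts simulated from the same Poisson and binomial models. Such counts hold no variation between nuclei, animals or libraries, so the check says nothing of it. Every member is named in each class with at least 50 nuclei in both libraries. Of the list of 64 genes, the 4 highest and 4 lowest per class with at least 100 UMIs were eligible. For each member with at least 1000 UMIs in the neurons of each library, the most alike genes were eligible. The members and lists were chosen with earlier results of these data known.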

Additional observations from a re-analysis of the deposited data

How the results depend on the processing

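No paired analysis was possible because each group has 1 library. Log2 ratios are CCI over WT, shares percent of UMIs, and causes of the shifts were not tested. Thinning to 1000 UMIs gave summed ratios of 0.03 in neurons and -0.34 in OPC-like nuclei. It gave a Grin2c share of 25.9% in CCI astrocyte-like nuclei and a Grin1 share of 5.21% in CCI dopaminergic-like neurons. The Grin2a share of Grin2a plus Grin2b was then 37.5% in CCI neurons. Grin2c in GABAergic-like neurons stood at -1.34, read in only 3 CCI and 5 WT nuclei. Nuclei below that depth were left out, so 131 of 547 WT OPC-like nuclei remained, against all 387 in CCI. Gating by transcripts gave, in dopaminergic neurons, a summed ratio of 0.11, a Grin1 share of 7.69% (CCI) and Grin2a shares of 44.3% (CCI) and 48.6% (WT). Gated OPC had Grin3a shares of 73.2% in CCI and 66.0% in WT. Equal weight for shared clusters gave summed ratios of 0.03 in neurons, -0.01 in dopaminergic-like and 0.07 in GABAergic-like neurons, a Grin2c share of 22.8% in WT astrocyte-like nuclei, a Grin1 share of 4.09% in WT dopaminergic-like neurons, and Grin2a shares of 42.5% in CCI and 46.1% in WT neurons and 53.6% in CCI and 58.5% in WT dopaminergic-like neurons. It also turned Grin2c in Slc17a6 neurons to -0.46 and Grin1 in microglia/macrophage-like nuclei to 0.01. Without doublet removal the Grin2c share was 22.8% in WT astrocyte-like nuclei, of which 154 then remained, and the Grin3a share 52.9% in CCI and 52.3% in WT OPC-like nuclei. Leaving out subclusters held mostly by 1 library, an alternative chosen after seeing the data, gave summed ratios of -0.04 in neurons, -0.01 in dopaminergic-like and 0.04 in GABAergic-like neurons and 0.07 in astrocyte-like nuclei, a Grin1 share of 4.09% in WT dopaminergic-like neurons, and Grin2a shares of 40.9% in CCI and 50.4% in WT neurons and 53.6% in CCI and 58.5% in WT dopaminergic-like neurons. In neurons, the listed genes higher in CCI numbered 3 with at least 100 UMIs and 2 past a fold of 2, and those lower numbered 1 past a fold of 2.

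TMM scaling moved 0 of 58 single-subunit ratios beyond their interval. Thinning moved 19 and reversed 1 (37 kept within their interval), equal weight moved 24 and reversed 2 (32 kept), and leaving out subclusters held mostly by 1 library moved 13 and reversed 0 (41 kept). The WT library, with a median of 975 UMIs, limits Grin2c, Grin2d and Grin3b in small classes, and Grin3b gave 69 UMIs in CCI and 20 in WT over all kept nuclei. Stricter filters and Leiden resolutions of 0.5 and 2.0 moved no subunit share or summed ratio that was recomputed beyond its interval. With 1 library per group, animal, tissue piece and library cannot be told apart from injury.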

Other observations

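Neurons of further types also carried subunit transcripts. Of those given here, only the orexin and MCH subcluster lay outside the compared groups. Those led by Tph2 and Hdc were counted among the neurons without a group. The orexin and MCH subcluster, from 252 CCI nuclei with 13 in WT, had Grin2b at 785.0 CPM, Grin2a at 345.0 CPM and Grin3a at 259.4 CPM in CCI, with Grin2a at 30.5% of Grin2a plus Grin2b (28.4 to 32.7). A subcluster led by the serotonergic genes Tph2 and Slc6a4 (67 CCI and 4 WT nuclei) had Grin2b at 676.0 CPM and Grin2a at 405.2 CPM in CCI. A subcluster led by Hdc, the enzyme of histamine synthesis, had Grin3a at 528.6 CPM and Grin2a at 15.5 CPM in only 12 CCI nuclei.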
